A study of Homo sapiens with 12 samples.

Results

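The comparison described here is OCI-LY3 after 6 h against OCI-LY3 after 3 h of AZ5576, a selective inhibitor of the kinase CDK9. It was chosen by its samples alone: the 2 libraries labelled OCI-LY3 at 6 h and the 2 labelled OCI-LY3 at 3 h, which are 4 of the 12 libraries of the series, with every gene of the count table. It asks what further happened to messenger RNA levels while the inhibitor stayed on, and no untreated library enters it. OCI-LY3 and VAL are human lines established from patients with diffuse large B-cell lymphoma. The 6 h and the 3 h groups received 300 nM AZ5576. A 0 h group of each line was collected when the drug was added. Its libraries are labelled untreated, while the design text of the series speaks of vehicle. The VAL groups at 6 h, 3 h and 0 h are used here only where the lines are compared. All 6 groups held 2 libraries. The labels do not say whether these came from separate cultures, so p-values measure the spread between the libraries, which may be technical.

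CDK9 with a cyclin T partner forms P-TEFb, the kinase that releases RNA polymerase II from its pause near the start of genes. When the kinase is inhibited, short-lived messenger RNAs are lost first, among them those of the survival protein MCL1 and of the transcription factor MYC, on which many lymphomas depend. Cells hold a reserve of P-TEFb in the 7SK particle, and genes that are strongly induced can be transcribed again while others keep running down.

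The 6 h libraries held 23175082 and 26305925 counts and the 3 h libraries 28865842 and 28552461. Of 58233 genes listed, 35090 had a count and 16374 had enough counts to be tested. Mitochondrially encoded messenger RNAs took 5.26% ± 0.17 of counts at 6 h and 4.51% ± 1.04 at 3 h, and those of cytosolic ribosomal proteins 15.8% ± 0.14 and 13.1% ± 0.93 (SD, n = 2 each). The 3 h libraries differed more from each other than the 6 h libraries did: the chi-square of their counts over genes was 18.2 per degree of freedom at 3 h and 2.80 at 6 h. The 8 B-cell markers summed to between 3389 and 3968 CPM in the 6 OCI-LY3 libraries, and the 9 markers of T and NK cells to at most 7.77 CPM. CPM here are library-size normalised counts after TMM scaling, which sets the middle of all genes equal between libraries. OCI-LY3 is known as a line of the activated B-cell type. In the 0 h libraries labelled OCI-LY3, IRF4, a regulator of that type, stood at 2.83 and 2.71 CPM, against 26.9 and 28.0 CPM in VAL. Other genes used to tell the types apart did not point one way. The germinal-centre genes MME and SERPINA9 stood at 155 and 157 CPM and at 85.5 and 80.9 CPM in OCI-LY3 and at 165 and 160 CPM and 64.5 and 60.9 CPM in VAL. LMO2, another germinal-centre gene, was at 0 and 0.0226 CPM in OCI-LY3 and 78.6 and 75.8 CPM in VAL, and BATF, high in the activated type, at 11.2 and 11.1 CPM in OCI-LY3 and 1.5 and 1.94 CPM in VAL. S1PR2, also of the germinal-centre type, stood at 175 CPM in both OCI-LY3 libraries and at 129 and 131 CPM in VAL. MYBL1 and STAP1, of the same type, were at 114 and 113 CPM and at 63.5 and 66.1 CPM in OCI-LY3. In VAL they were at 153 and 160 CPM and at 135 and 131 CPM. BCL6 was at 191 and 196 CPM in OCI-LY3 and 127 CPM in both VAL libraries. MME, SERPINA9, LMO2, BATF, S1PR2, MYBL1 and STAP1 were singled out after their values were seen. Whether the labelled line is OCI-LY3 was not tested.

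With TMM scaling more genes were lower than higher in OCI-LY3 between 3 h and 6 h. Among changes of at least 2-fold more were higher, which did not hold under every setting. Of the genes tested, 1958 were higher at 6 h than at 3 h (12%) and 2670 were lower (16.3%) by edgeR's quasi-likelihood test with a Benjamini-Hochberg adjusted p under 0.05. At a change of at least 2-fold 1260 genes were higher (7.70%) and 770 lower (4.70%). Both 6 h libraries lay above both 3 h libraries for 33.8% of genes and below both for 35.8%. Many of the genes that rose had under 0.5 CPM at 0 h: 42.0% of all genes higher and 64.3% of those higher by at least 2-fold. Of the 16319 tested genes with a known position, 4261 were under that level at 0 h. Testing needed enough counts in some libraries of any group, so a gene near 0 CPM at 0 h was tested only through other groups. The shares of 42.0% and 64.3% are therefore partly set by this filter. Among genes lower the share was 0.974%, and among those lower by at least 2-fold 2.99%. A gene that stays near that level has little room to pass as lower, so these low shares are a weak comparison.

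The split depends on what is held constant, since no spike-in is named in the labels and a count gives only a share of a library. TMM puts the median log2 change over all genes at 0. With library totals alone the median was -0.15 and the split 1433 higher and 3674 lower. Upper-quartile factors gave a median of 0.20 with 3391 higher and 1590 lower. Holding mitochondrial messenger RNAs constant gave -0.41 with 973 higher and 3922 lower, and holding ribosomal protein messenger RNAs constant gave -0.42 with 924 higher and 4968 lower. At 2-fold or more, library totals gave 1074 higher and 1222 lower, so that more were lower. Mitochondrial scaling gave 869 and 2465, and ribosomal protein scaling 767 and 2328. With TMM and a mean of at least 5 CPM there were 362 higher and 377 lower. Upper-quartile factors kept more higher, with 1598 and 418. The counts also rest on the small number of libraries. Leaving out 6 h replicate 1 or 2 gave 1070 or 1239 genes higher and 1559 or 1549 lower, and leaving out 3 h replicate 1 or 2 gave 1215 or 1076 higher and 1872 or 1538 lower. Every further change is relative to the TMM median unless another scaling is named. Counts of list members that passed are to be read beside the 12% higher and 16.3% lower over all genes tested.

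**Figure D1:**
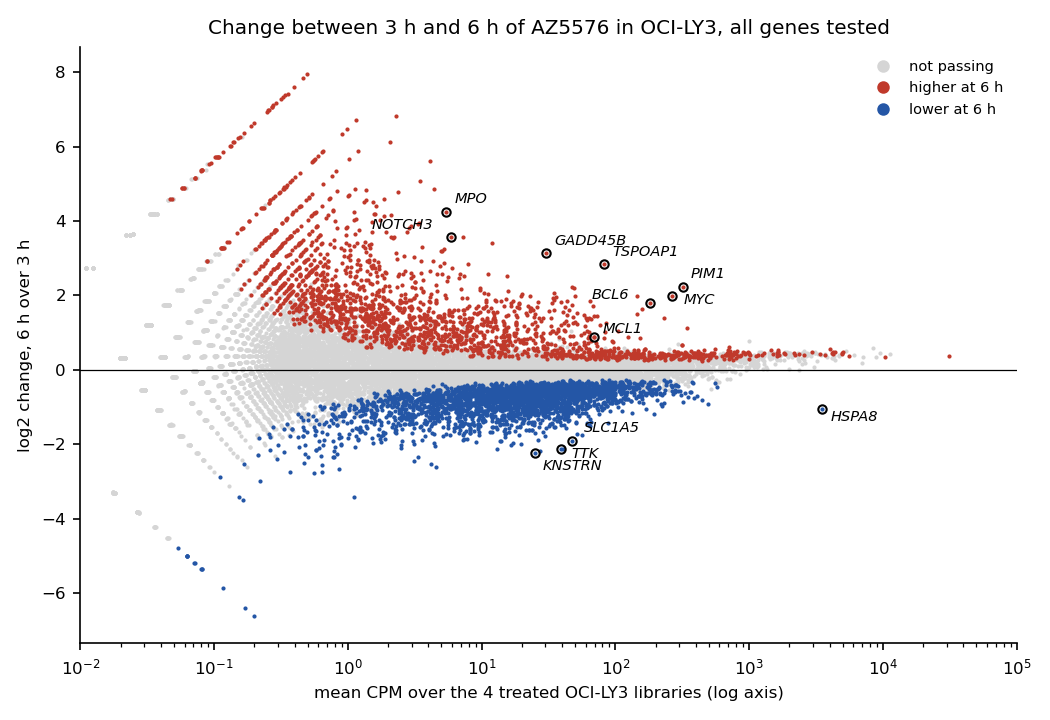
Log2 change of 6 h over 3 h in OCI-LY3 against the mean CPM of the 4 treated libraries (log axis), 1 point per gene tested. Red points passed the test as higher at 6 h and blue points as lower; MPO, GADD45B, PIM1 and MYC lie far above 0, and KNSTRN, TTK and SLC1A5 far below. The diagonal streaks at the left are genes with only a few counts.

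On the TMM scale MYC came back beyond the level it had before the drug. PIM1, which had not passed as lower at 3 h, rose far above its 0 h level. MYC, a transcription factor that drives growth, had 436 and 404 CPM at 6 h, against 109 and 103 CPM at 3 h, with 258 and 264 CPM at 0 h. Its 6 h libraries lay well above all others, and the log2 change of 6 h over 3 h was 1.98 ± 0.09 (SE, adjusted p = 3.1e-06 by edgeR). PIM1, a survival kinase induced by cytokine signalling, had 534 and 514 CPM at 6 h, against 115 and 107 CPM at 3 h. At 0 h it had 126 and 125 CPM, so its 3 h mean was 88.7% and its 6 h mean 418% of the 0 h mean. The log2 change of PIM1 was 2.24 ± 0.10 (SE, adjusted p = 2.8e-06 by edgeR). BCL6, the repressor that maintains germinal-centre B cells, had 290 and 273 CPM at 6 h, against 79.0 and 82.8 CPM at 3 h, and 191 and 196 CPM at 0 h. Its log2 change was 1.80 ± 0.10 (SE, adjusted p = 7.4e-06). For 6 h over 0 h the log2 changes on the TMM scale were 0.68 for MYC, 2.06 for PIM1 and 0.54 for BCL6. The medians of that change were 1.60 for mitochondrially encoded and 1.15 for ribosomal protein messenger RNAs. Levels against 0 h were not tested with these families held constant.

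MCL1 came back only in part. It had 99.5 and 81.4 CPM at 6 h, against 51.2 and 46.8 CPM at 3 h, and 275 and 283 CPM at 0 h. The groups did not overlap, and the log2 change of 6 h over 3 h was 0.88 ± 0.16 (SE, adjusted p = 0.0020), which left the 6 h mean at 32.4% of the 0 h mean. The call for MCL1 was lost with mitochondrial or ribosomal protein messenger RNAs held constant, where the lowest log2 change was 0.45. BCL2L1, which encodes the survival protein BCL-XL, had 108 and 106 CPM at 6 h, against 50.4 and 42.4 CPM at 3 h, and 63.2 CPM in both 0 h libraries. It rose by a log2 change of 1.21 ± 0.11 (SE, adjusted p = 5.0e-05) to 170% of the 0 h mean on the TMM scale. Of the other anti-apoptotic members, BCL2 had 23.3 and 20.5 CPM at 6 h against 13.6 and 15.2 CPM at 3 h, a log2 change of 0.60 ± 0.44 that did not pass (adjusted p = 0.34). BCL2A1 had 15.5 and 14.9 CPM at 6 h against 13.3 and 12.4 CPM at 3 h and did not pass either (log2 change 0.24, adjusted p = 0.25). In all, 2 of 5 anti-apoptotic genes tested passed as higher and none as lower.

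**Figure D2:**
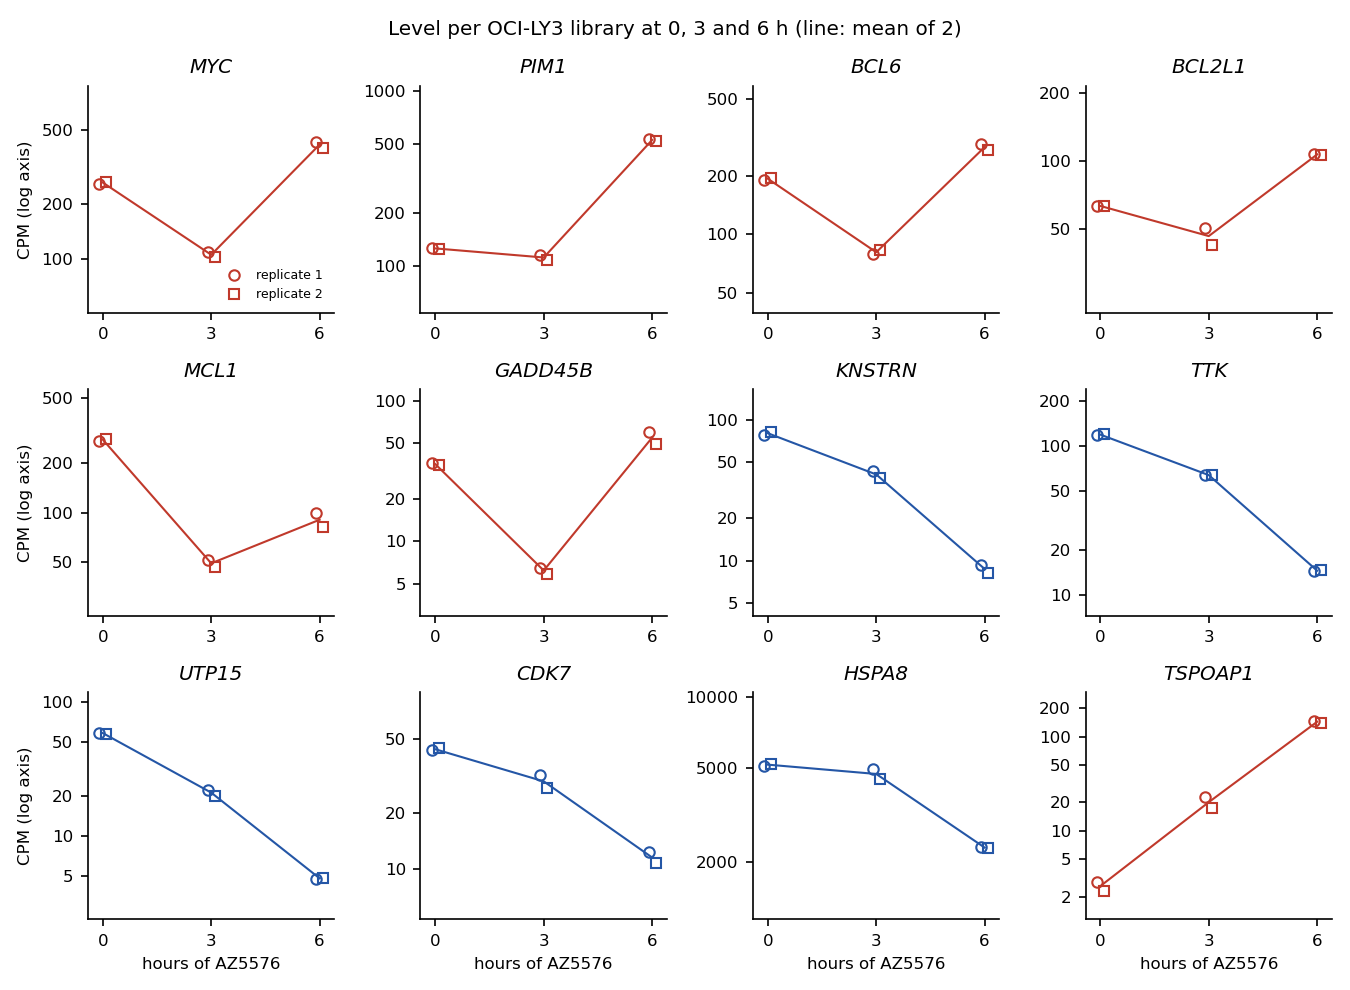
CPM (log axis) of 12 genes in each OCI-LY3 library at 0, 3 and 6 h of AZ5576; circles are replicate 1, squares replicate 2 and lines join the means. On the TMM scale MYC, PIM1, BCL6, BCL2L1 and GADD45B end above their 0 h level and MCL1 ends below it. KNSTRN, TTK, UTP15, CDK7 and HSPA8 go on falling, and TSPOAP1 rises throughout.

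Of 11 pro-apoptotic members of the BCL2 family tested, 2 rose, 1 fell and 8 did not pass, with a median log2 change of -0.10. BBC3, which encodes PUMA, had 6.98 and 8.22 CPM at 6 h, against 1.61 and 1.51 CPM at 3 h (log2 change 2.29 ± 0.29 SE, adjusted p = 0.00025). PMAIP1, which encodes the MCL1 antagonist NOXA, had 54.9 and 49.1 CPM at 6 h, against 17.3 and 16.5 CPM at 3 h (log2 change 1.62 ± 0.19 SE, adjusted p = 0.00019). Both stood below their 0 h means, BBC3 at 75.4% and PMAIP1 at 80.2%. BIK, a BH3-only protein, had 13.1 CPM in both 6 h libraries, against 25.4 and 22.7 CPM at 3 h (log2 change -0.88, adjusted p = 0.013). BIK did not pass with any 1 of the 4 treated libraries left out, where its adjusted p was 0.057 to 0.081.

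The death receptors and their adaptors divided. Of 12 genes tested, 3 rose, 4 fell and 5 did not pass, with a median of 0.05. The receptors for the ligand TRAIL moved apart: TNFRSF10A had 22 and 19.0 CPM at 6 h against 9.60 and 10.4 CPM at 3 h (log2 change 1.04, adjusted p = 0.0016), and TNFRSF10B had 14.9 and 13.7 CPM at 6 h against 27.1 and 30.8 CPM at 3 h (log2 change -1.01, adjusted p = 0.00012). FADD, the adaptor that recruits caspase-8, rose by 1.68 ± 0.31 on the log2 scale, and BIRC2, which encodes the inhibitor cIAP1, by 1.62 ± 0.18 (SE, adjusted p = 0.0022 and 0.00013). BIRC2 had 74.7 and 61.5 CPM at 6 h, 22.3 and 21.9 CPM at 3 h, and 27.2 and 26.6 CPM at 0 h. FAS, another death receptor, had 12.4 and 11.5 CPM at 6 h, against 22.8 and 23.6 CPM at 3 h (adjusted p = 0.00014). TNFRSF10A lost its call with mitochondrial messenger RNAs held constant (log2 change 0.60, adjusted p = 0.13). RIPK1, the kinase between tumour necrosis factor receptors and both NF-kB and death, had 3.32 and 2.68 CPM at 6 h, against 9.20 and 9.60 CPM at 3 h (log2 change -1.65, adjusted p = 0.00011).

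The genes that moved most were chosen as the 12 highest and 12 lowest protein-coding genes that passed, with at least 5 CPM on average. The choice also required both 6 h libraries to lie on the same side of both 3 h libraries. The highest was MPO, the peroxidase of neutrophil granules, with 10.2 and 10.4 CPM at 6 h, against 0.766 and 0.315 CPM at 3 h and no count at 0 h (log2 change 4.25 ± 0.43 SE, adjusted p = 0.00018). Of 8 myeloid markers MPO and CD14 rose; CD14, a lipopolysaccharide co-receptor of monocytes, had 4.75 and 4.13 CPM at 6 h, against 0.803 and 0.666 CPM at 3 h. The 8 markers summed to 22.1 and 21.2 CPM at 6 h and 7.19 and 7.22 CPM at 3 h, while S100A8, S100A9 and FCGR3A had no count at 6 h. MPO lies on the reverse strand of chromosome 17 (GRCh38, 58269856 to 58280935), next to TSPOAP1 (58301228 to 58328760) on the same strand. TSPOAP1, which encodes a scaffold of the RIM-binding family, had 147 and 141 CPM at 6 h, against 22.9 and 17.3 CPM at 3 h, and 2.86 and 2.30 CPM at 0 h (log2 change 2.84 ± 0.17 SE). Upstream of TSPOAP1 on that strand lies SUPT4H1, a subunit of the elongation factor DSIF, which had 54.4 and 50.7 CPM at 6 h and 43.6 and 36.6 CPM at 3 h and did not pass (adjusted p = 0.27).

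Of the 12 highest genes, 9 had under 1 CPM in both 0 h libraries. NOTCH3, a receptor of the Notch family, had 12.3 and 9.41 CPM at 6 h, against 0.839 and 0.981 CPM at 3 h. CHRNA9, a subunit of nicotinic acetylcholine receptors, had 23.9 and 19.6 CPM at 6 h, against 2.04 and 2.03 CPM at 3 h. EFNB2, an ephrin ligand, had 11.0 and 7.83 CPM at 6 h, against 1.06 and 0.911 CPM at 3 h, and begins 6011 bases past the end of ARGLU1 on the same strand. ASTL, an egg-cell protease, had 14.1 and 13.5 CPM at 6 h, against 2.26 and 1.54 CPM at 3 h, and begins 4730 bases past the end of DUSP2. The matrix protein gene ADAMTSL4 had a log2 change of 3.57, WFIKKN2, which encodes a secreted inhibitor of growth factors, 3.19, and NWD1 2.87. MB21D1, an older symbol of the DNA sensor cGAS, had 10.8 and 9.89 CPM at 6 h, against 1.61 and 1.51 CPM at 3 h. GADD45B and ACKR3, like TSPOAP1, had been expressed before treatment. GADD45B, a stress-induced activator of kinase cascades, had 60.5 and 49.0 CPM at 6 h, against 6.49 and 5.89 CPM at 3 h, and 36.2 and 34.6 CPM at 0 h. ACKR3, a scavenging receptor for the chemokine CXCL12, had 12.1 and 11.7 CPM at 6 h, against 1.79 and 2.17 CPM at 3 h, and 9.91 and 10.2 CPM at 0 h.

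Genes that lie close behind an active gene were counted in each class. An upstream gene on the same strand with at least 20 CPM at 0 h ended within 10 kb of 17.2% of the genes that rose at least 2-fold and had under 0.5 CPM at 0 h. The share was 10.4% over all genes tested that had under 0.5 CPM at 0 h. Among genes that rose at least 2-fold and had at least 5 CPM at 0 h it was 12%. That is near the 10.6% over all genes tested with at least 5 CPM at 0 h. Genes that fell at least 2-fold had a share of 7.93%, and all genes tested 11.0%. The library kit does not keep strand, so reads of a gene and of a neighbour on the opposite strand cannot be told apart. Whether reads from upstream genes contributed was not tested.

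The 12 lowest genes had all lost messenger RNA by 3 h and lost it again by 6 h. KNSTRN, which encodes the spindle protein kinastrin, had 9.35 and 8.13 CPM at 6 h, against 43.1 and 38.7 CPM at 3 h, and 78.2 and 82.3 CPM at 0 h (log2 change of 6 h over 3 h -2.23 ± 0.20 SE, adjusted p = 5.0e-05). METTL13, a methyltransferase of translation factor eEF1A, had 9.85 and 9.89 CPM at 6 h, against 44.4 CPM in both 3 h libraries, and 88.4 and 89.2 CPM at 0 h (log2 change -2.17 ± 0.13 SE, adjusted p = 7.9e-06). UTP15, a part of the small-subunit processome, had 4.75 and 4.84 CPM at 6 h, against 22 and 20 CPM at 3 h. GRWD1, a histone-binding ribosome assembly factor, had 13.9 and 16.7 CPM at 6 h, against 67.0 and 65.4 CPM at 3 h. The means of these 4 genes at 6 h were between 8.17% and 11.1% of their 0 h means. CD180, a Toll-like receptor relative of B cells, had 3.81 and 3.61 CPM at 6 h, against 14.9 and 13.7 CPM at 3 h. SLC1A5, the glutamine transporter ASCT2, had 19.1 and 20.6 CPM at 6 h, against 75.7 and 72.5 CPM at 3 h. The others were TTK, the Golgi protein gene GOLPH3, the GTPase gene GTPBP2, the adenylate kinase gene AK6, the tubulin ligase gene TTLL4 and the actin-severing CFL2, with log2 changes from -2.13 to -1.91. AK6 shares its locus with TAF9, so its counts are uncertain.

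The promoters of 3 genes that rose and 1 that fell are shown because a motif count over promoters is given for both classes. The sequences are the 250 bases upstream of the RefSeq start (GRCh38.p14), 5′ to 3′ on the gene's strand, which is the forward strand for all 4. Capitals mark the TATA box motif TATAAA, the motif called CCAAT, the GC box motif written GGGCGG, the E-box motif known as CACGTG and the AP-1 motif TGANTCA wherever a search of both strands found them, and no marked motif overlaps another. JUNB lies at chr19:12791236-12791485, GADD45B at chr19:2475877-2476126, PIM1 at chr6:37169902-37170151 and METTL13 at chr1:171781410-171781659.
JUNB: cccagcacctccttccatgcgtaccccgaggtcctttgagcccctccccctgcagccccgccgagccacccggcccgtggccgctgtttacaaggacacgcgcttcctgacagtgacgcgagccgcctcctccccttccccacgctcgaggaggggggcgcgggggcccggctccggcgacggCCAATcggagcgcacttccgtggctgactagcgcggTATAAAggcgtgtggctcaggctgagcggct
GADD45B: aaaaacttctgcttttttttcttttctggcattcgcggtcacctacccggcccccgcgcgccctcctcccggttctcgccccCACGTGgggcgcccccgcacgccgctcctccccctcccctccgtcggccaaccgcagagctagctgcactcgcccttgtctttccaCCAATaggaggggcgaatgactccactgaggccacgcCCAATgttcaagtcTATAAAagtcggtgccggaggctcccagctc
PIM1: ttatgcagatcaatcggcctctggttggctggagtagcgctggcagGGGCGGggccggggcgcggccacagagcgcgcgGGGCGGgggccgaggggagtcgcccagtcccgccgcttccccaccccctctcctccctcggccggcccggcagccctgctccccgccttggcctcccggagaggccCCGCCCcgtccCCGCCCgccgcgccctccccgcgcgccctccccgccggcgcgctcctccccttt
METTL13: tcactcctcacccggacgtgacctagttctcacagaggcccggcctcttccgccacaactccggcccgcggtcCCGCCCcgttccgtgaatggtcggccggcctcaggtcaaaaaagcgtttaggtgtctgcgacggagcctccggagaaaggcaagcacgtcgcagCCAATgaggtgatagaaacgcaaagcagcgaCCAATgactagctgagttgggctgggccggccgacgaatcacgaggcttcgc
JUNB and GADD45B hold a TATAAA that begins at -31 from the start, and PIM1 and METTL13 hold none. PIM1 has 4 matches to GGGCGG and METTL13 has 2 to CCAAT and 1 to GGGCGG. The TATA box motif was found in 11.4% of the promoters of genes that rose at least 2-fold and had at least 5 CPM at 0 h (193 of 241 had an entry), and in 12.3% of those that had under 0.5 CPM at 0 h (430 of 809). It was found in 5.20% of promoters of genes that fell at least 2-fold (558 of 770), in 8.18% of those of all genes tested and in 10.7% of the 35116 promoters of the table. GGGCGG was in 74.1% of promoters of the first set, 74.9% of those of genes that fell and 72.5% of those of all genes tested, and CCAAT in 48.7%, 44.1% and 41.4%. CACGTG was in 9.33% of promoters of the first set, 11.5% of those of genes that fell and 11.2% of those of all genes tested. TGANTCA, the AP-1 motif, was in 6.22%, 4.30% and 6.24%. In the promoters of genes that rose at least 2-fold and had under 0.5 CPM at 0 h the shares were 59.3% for GGGCGG, 37.9% for CCAAT, 8.84% for the E-box motif and 8.60% for the AP-1 motif. No motif share was counted over all genes tested of like level at 0 h. Whether the sets that rose differ from such genes was therefore not tested. A match describes letters in the window and shows no binding.

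Immediate-early genes, which cells switch on within minutes of a stimulus, passed as higher more often than as lower. Of 21 AP-1, EGR and related genes tested, 7 rose, 1 fell and 13 did not pass, with a median log2 change of 0.77 beside 0 over all genes. JUNB, an AP-1 subunit, had 36.1 and 36.5 CPM at 6 h, against 11.1 and 12.5 CPM at 3 h (log2 change 1.61 ± 0.13 SE, adjusted p = 2.6e-05), and 57.0 and 60.0 CPM at 0 h. EGR1, a zinc-finger factor, had 2.28 and 2.51 CPM at 6 h, against 0.839 and 0.561 CPM at 3 h (adjusted p = 0.00079). IER2 had 15.9 and 16.4 CPM at 6 h, against 8.17 and 7.40 CPM at 3 h, and IER5, a regulator of the heat-shock factor, 43.1 and 38.8 CPM against 12 and 11.2 CPM. IER2 lost its call with mitochondrial messenger RNAs held constant (log2 change 0.64, adjusted p = 0.096). FOS stayed under 0.5 CPM in all OCI-LY3 libraries and did not pass (adjusted p = 0.24). SRF, the factor that induces many of these genes, had 23.6 and 24.0 CPM at 6 h, against 33.0 and 38.7 CPM at 3 h (adjusted p = 0.0051), and lost its call without 3 h replicate 2 (log2 change -0.46, adjusted p = 0.070).

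Of 8 KLF factors tested 2 rose and none fell: KLF10 had 31.7 and 27.2 CPM at 6 h against 8.39 and 8.48 CPM at 3 h, and KLF6 18.3 and 15.2 CPM against 5.07 and 4.45 CPM. The adjusted p of KLF6 was 0.0096 and went to 0.062 without 6 h replicate 1, 0.053 without 3 h replicate 1 and 0.069 without 3 h replicate 2. Of 12 DUSP and Sprouty genes, which switch off MAP kinases, 3 rose and 9 did not pass. DUSP2 had 16.2 and 11.6 CPM at 6 h, against 5.18 and 4.49 CPM at 3 h, and DUSP10 5.10 and 5.32 CPM against 2.01 and 1.40 CPM. DUSP8, under 1 CPM throughout, passed at an adjusted p of 0.024 and lost its call without 6 h replicate 1 (0.064), 6 h replicate 2 (0.14) or 3 h replicate 1 (0.15). Of 11 regulators of messenger RNA decay 5 rose, 1 fell and 5 did not pass. BTG2, which recruits the deadenylase, had 71.0 and 65.4 CPM at 6 h, against 20.4 and 17.7 CPM at 3 h (log2 change 1.84 ± 0.16 SE, adjusted p = 3.3e-05). ZFP36, ZFP36L2 and TOB2, which bring messages to the same machinery, rose by 1.26, 1.00 and 1.22 on the log2 scale. ZFP36L2 lost its call with mitochondrial or ribosomal protein messenger RNAs held constant (adjusted p = 0.21 and 0.11). CNOT7, a catalytic subunit of that deadenylase, had 116 and 111 CPM at 6 h, against 146 and 142 CPM at 3 h (adjusted p = 0.019), but 0.070 to 0.12 with any 1 of the 6 OCI-LY3 libraries left out.

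**Figure D3:**
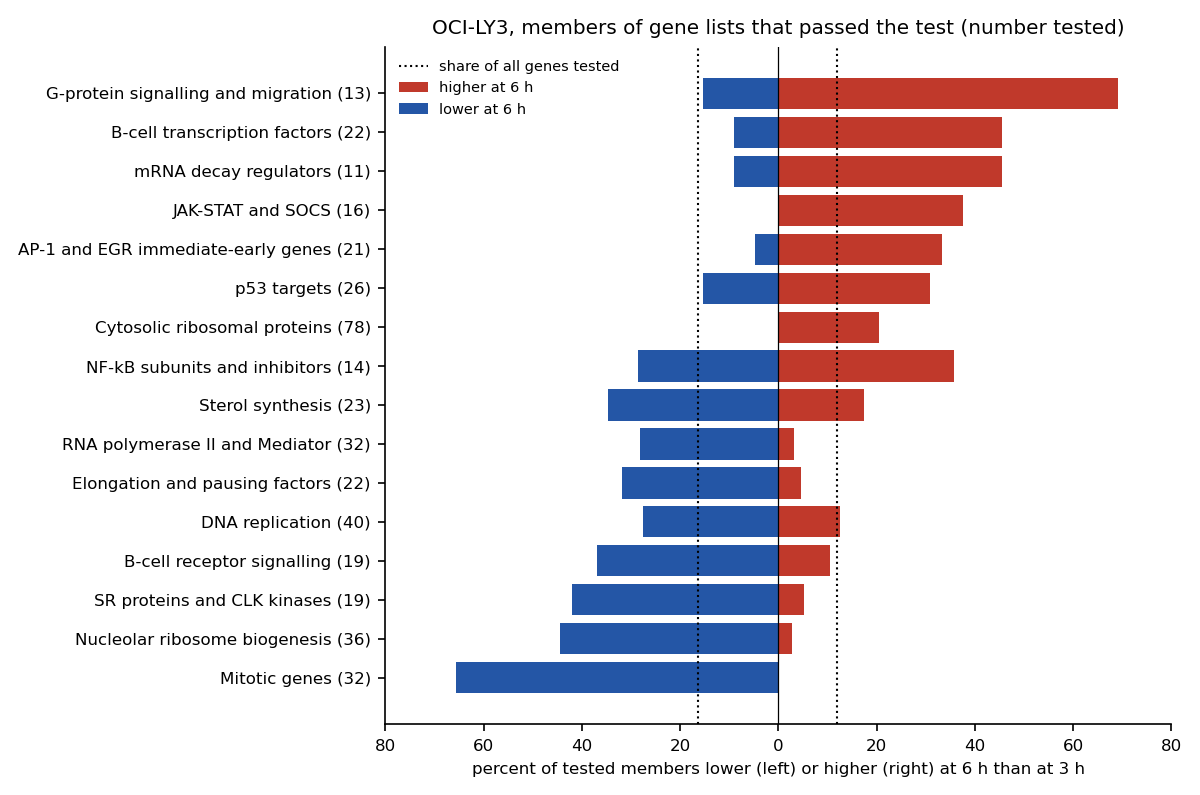
Percent of tested members of 16 gene lists that were lower (blue, left) or higher (red, right) at 6 h than at 3 h in OCI-LY3, with the number tested after each name; dotted lines give the shares of all genes tested, 16.3% lower and 12% higher. G-protein and B-cell factor genes stand out to the right, and mitotic and nucleolar genes to the left.

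Of 14 NF-kB subunits and inhibitors tested 5 rose, 4 fell and 5 did not pass, with a median of -0.01. NFKBIA, which encodes the inhibitor IkB-alpha, had 63.7 and 58.9 CPM at 6 h, against 25.9 and 23.5 CPM at 3 h (log2 change 1.31 ± 0.17 SE, adjusted p = 0.00033), and 69.9 and 69.6 CPM at 0 h. TNFAIP3, the deubiquitinase A20, had 77.9 and 68.6 CPM at 6 h, against 36.4 and 39.4 CPM at 3 h (adjusted p = 0.0032). BCL3, a nuclear partner of NF-kB, had 25.3 and 26.1 CPM at 6 h, against 5.66 and 6.13 CPM at 3 h (log2 change 2.12 ± 0.12 SE), and NFKBIZ, of the same family, 76.5 and 64.2 CPM against 27.9 and 30.2 CPM. With mitochondrial or ribosomal protein messenger RNAs held constant TNFAIP3 lost its call (log2 change 0.51 in both, adjusted p = 0.20 and 0.25), and NFKBIZ lost it in the second case (0.84, adjusted p = 0.092). The subunit genes RELA and NFKB2 fell by 0.91 and 0.57 on the log2 scale. NFKB1 had 66.6 and 65.8 CPM at 6 h, against 87.2 and 95.4 CPM at 3 h (adjusted p = 0.0031), and 0.065 without 3 h replicate 2. TNIP2, which binds A20, fell by 0.74.

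Many transcription factors of B cells rose. Of 22 tested 10 rose, 2 fell and 10 did not pass, with a median of 0.39. Between 5 and 11 passed as higher over the other scalings, and the lowest median among them was -0.05. Beside BCL6, IRF8, a factor of germinal-centre B cells, had 338 and 329 CPM at 6 h, against 129 and 123 CPM at 3 h, and 161 and 169 CPM at 0 h (log2 change 1.40 ± 0.10 SE, adjusted p = 1.7e-05). ID2, an inhibitor of E proteins, had 6.68 and 5.32 CPM at 6 h, against 0.985 and 0.981 CPM at 3 h. XBP1, which prepares plasma cells for secretion, had 61.2 and 54.2 CPM at 6 h, against 26.2 and 22.3 CPM at 3 h, and 114 and 119 CPM at 0 h. IRF4 had 1.68 and 1.19 CPM at 6 h, against 0.912 and 0.666 CPM at 3 h. Its adjusted p was 0.044, and 0.28 without 6 h replicate 1, 0.060 without 3 h replicate 1, 0.22 without 3 h replicate 2 and 0.057 without either 0 h library. PRDM1, the factor that drives plasma cell fate, stayed under 0.2 CPM in the 4 treated libraries. SPIB and SPI1, related ETS factors, fell by 0.78 and 0.65 (adjusted p = 0.0015 and 0.0027).

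Most receptors and regulators that position B cells rose. Of 13 G-protein signalling and migration genes tested 9 rose, 2 fell and 2 did not pass, and the median was 1.27. Under the other scalings 7 to 10 passed as higher and the median was 0.84 to 1.48. CXCR5, the receptor that guides B cells into follicles, had 4.85 and 5.58 CPM at 6 h, against 1.24 and 1.02 CPM at 3 h (log2 change 2.21 ± 0.25 SE, adjusted p = 0.00013). CCR7, which guides cells to T zones, had 94.3 and 81.9 CPM at 6 h, against 35.6 and 34.1 CPM at 3 h, and 105 and 99.7 CPM at 0 h. RGS16 and RGS1, which shut off G-protein signals, had log2 changes of 1.67 and 1.61. RGS16 was at 40.8% of its 0 h mean at 6 h. S1PR4, a receptor for sphingosine phosphate, fell by 0.52 (adjusted p = 0.014), and its adjusted p was 0.058 without 6 h replicate 1, 0.10 without 6 h replicate 2 and 0.083 without 3 h replicate 2. RGS19 fell by 0.42 (adjusted p = 0.042), and did not pass with any 1 OCI-LY3 library left out (0.079 to 0.18).

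Genes of B-cell receptor signalling passed as lower more often than as higher, except with upper-quartile factors, where 6 passed as higher and 4 as lower. Of 19 genes tested 2 rose, 7 fell and 10 did not pass, with a median of -0.15. BLNK, the adaptor that links the receptor to calcium release, had 15.8 and 15.9 CPM at 6 h, against 35.4 and 35.6 CPM at 3 h (log2 change -1.16 ± 0.11 SE, adjusted p = 5.0e-05). PTPN6, the phosphatase SHP-1, had 25.3 and 28.7 CPM at 6 h, against 60.1 and 59.0 CPM at 3 h, and VAV1, an exchange factor, 50.9 and 52.3 CPM against 83.3 and 85.1 CPM. At 0 h the values were 41.6 and 43.4 CPM for BLNK, 68.1 and 71.4 CPM for PTPN6, and 83.3 and 84.0 CPM for VAV1. BCL10, the scaffold that passes the signal to NF-kB, had 13.7 and 11.0 CPM at 6 h, against 3.94 and 3.58 CPM at 3 h (adjusted p = 0.00031). PRKCB, the kinase upstream of it, passed at 0.036 with a log2 change of 0.31, but at 0.069 to 0.18 with any 1 OCI-LY3 library left out, and its direction turned with mitochondrial or ribosomal protein messenger RNAs held constant.

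Of 15 activation and costimulation genes 4 rose, 4 fell and 7 did not pass. ICAM1, an adhesion ligand, had 64.0 and 63.9 CPM at 6 h, against 22.4 and 23.3 CPM at 3 h, and CD83, an activation marker, 75.3 and 64.2 CPM against 28.4 and 23.7 CPM. CD69, another activation marker, had 1.29 and 1.41 CPM at 6 h, against 0.365 and 0.280 CPM at 3 h. CD58, the ligand of CD2 on T cells, had 3.41 and 3.17 CPM at 6 h, against 9.96 and 9.01 CPM at 3 h (log2 change -1.53, adjusted p = 0.00037). Of 16 JAK-STAT genes tested 6 rose and none fell, with a median of 0.27. Over the other scalings 3 to 7 passed as higher, up to 1 as lower, and the median was -0.16 to 0.49. Beside PIM1, IL10RA, the interleukin-10 receptor, rose by a log2 change of 1.5, SOCS1, the inhibitor of JAK kinases, by 1.35 and PIM2, a second survival kinase, by 0.67 on the log2 scale (adjusted p = 7.6e-05, 0.00023 and 0.0017). PIM2 had 45.2 and 41.1 CPM at 6 h, against 28.4 and 25.8 CPM at 3 h, and lost its call with mitochondrial or ribosomal protein messenger RNAs held constant (adjusted p = 0.58 and 0.17).

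The p53 targets moved both ways. Of 26 tested 8 rose, 4 fell and 14 did not pass, with a median of -0.02. CDKN1A, which encodes the cell cycle inhibitor p21, had 66.0 and 62.0 CPM at 6 h, against 21.6 and 17.9 CPM at 3 h (log2 change 1.70 ± 0.18 SE, adjusted p = 8.5e-05), and its 6 h mean was 97.8% of the 0 h mean. AEN, a nuclease of apoptosis, had 107 and 103 CPM at 6 h, against 33.1 and 30.8 CPM at 3 h. GADD45A, a growth arrest gene, had 3.32 and 2.77 CPM at 6 h, against 1.09 and 1.44 CPM at 3 h, and 13.2 CPM in both 0 h libraries. GADD45A lost its call with mitochondrial messenger RNAs held constant (adjusted p = 0.066). MDM2, the ubiquitin ligase of p53, had 40.1 and 35.7 CPM at 6 h, against 52.0 and 47.5 CPM at 3 h (log2 change -0.39, adjusted p = 0.013). Without 6 h replicate 2 its adjusted p was 0.12, without 3 h replicate 1 it was 0.093, without 3 h replicate 2 it was 0.058 and without either 0 h library it was 0.051. TIGAR, a metabolic p53 target, fell by 0.67 (adjusted p = 0.0041, and 0.052 without 6 h replicate 2).

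Within the MYC network MYC and its partner moved in opposite directions. MAX, with which MYC binds DNA, had 11.9 and 12.3 CPM at 6 h, against 33.4 and 31.9 CPM at 3 h, and 51.9 and 54.3 CPM at 0 h (log2 change -1.43 ± 0.18 SE, adjusted p = 0.00026). MXD1, a MAX-binding repressor, rose by 1.71 to 2.47 and 1.89 CPM at 6 h, against 0.584 and 0.736 CPM at 3 h. MLX, another member, fell by 0.73. In all 2 of 10 genes tested rose, 3 fell and 5 did not pass.

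Of 13 genes of P-TEFb, the 7SK particle and BET proteins, 2 rose, 4 fell and 7 did not pass, and 5 were higher and 2 lower with upper-quartile factors. Both that rose were cyclin partners of CDK9: CCNT1 had 85.4 and 68.9 CPM at 6 h, against 27.5 and 25.5 CPM at 3 h, and 72.2 and 71.2 CPM at 0 h (log2 change 1.54 ± 0.17 SE, adjusted p = 0.00011), and CCNT2 17.7 and 14.4 CPM, against 6.49 and 7.75 CPM. CCNT2 lost its call with mitochondrial or ribosomal protein messenger RNAs held constant (adjusted p = 0.061 and 0.067). CDK9 had 37.1 and 34.3 CPM at 6 h, against 32.0 and 32.3 CPM at 3 h (log2 change 0.15 ± 0.11 SE, adjusted p = 0.33), and 63.4 and 62.3 CPM at 0 h. HEXIM1, the P-TEFb inhibitor of the 7SK particle, had 8.56 and 9.10 CPM at 6 h and 9.30 and 8.41 CPM at 3 h, which overlap. MEPCE, which caps the 7SK RNA, had 5.34 and 7.34 CPM at 6 h, against 13.6 and 13.9 CPM at 3 h, and 94.1 and 92.5 CPM at 0 h. CDK12, the other main elongation kinase, had 25.3 and 23.8 CPM at 6 h, against 55.9 and 71.0 CPM at 3 h (log2 change -1.37, adjusted p = 0.0021).

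Of 22 elongation and pausing factors 1 rose, 7 fell and 14 did not pass, with a median of -0.19; upper-quartile factors turned this to 6 higher and 3 lower. IWS1 and LEO1, factors that travel with the polymerase, fell by 1.81 and 1.46, and NELFA, a pausing subunit, by 0.90 on the log2 scale (adjusted p = 8.6e-05, 0.00023 and 0.0019). MLLT3, a super elongation complex subunit, fell by 0.55 (adjusted p = 0.0042, and 0.057 without 3 h replicate 2). NELFCD, another pausing subunit, had 251 and 250 CPM at 6 h against 199 and 190 CPM at 3 h (adjusted p = 0.016). It did not pass with any 1 OCI-LY3 library left out (0.051 to 0.14), and its direction turned with mitochondrial or ribosomal protein messenger RNAs held constant. Of 32 genes of RNA polymerase II and Mediator 1 rose, 9 fell and 22 did not pass (4 higher and 7 lower with upper-quartile factors). CDK8, the Mediator kinase, had 8.96 and 7.30 CPM at 6 h, against 22 and 26.0 CPM at 3 h, and CDK7, the kinase of TFIIH, 12.3 and 10.7 CPM against 31.8 and 27.3 CPM (adjusted p = 6.3e-05 and 0.00043). MED26, the Mediator subunit that recruits elongation factors, had 82.2 and 79.9 CPM at 6 h, against 16.6 and 18.4 CPM at 3 h, and 19.1 and 20.1 CPM at 0 h (log2 change 2.21 ± 0.30 SE, adjusted p = 0.00037). MED20, a head module subunit, fell by 0.82. POLR2A, the largest polymerase subunit, had 206 and 230 CPM at 6 h and 170 and 231 CPM at 3 h, which overlap (adjusted p = 0.64).

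Of 28 cleavage, polyadenylation and Integrator genes 3 rose, 9 fell and 16 did not pass (10 higher and 6 lower with upper-quartile factors). PCF11, a termination factor, had 92.5 and 89.8 CPM at 6 h, against 33.5 and 36.1 CPM at 3 h, and 81.7 and 79.0 CPM at 0 h (log2 change 1.39 ± 0.12 SE, adjusted p = 4.1e-05). INTS5, an Integrator subunit, had 17.9 and 18.3 CPM at 6 h, against 7.92 and 6.34 CPM at 3 h, whereas INTS7 had 19.4 and 18.4 CPM against 36.8 and 40.5 CPM. WDR33, which reads the polyadenylation signal, fell by 1.08. CLP1, a cleavage factor subunit, rose by 1.62 (adjusted p = 0.0096), with 0.060 without 6 h replicate 1, 0.058 without 3 h replicate 1 and 0.077 without 3 h replicate 2. Of 19 SR proteins and CLK kinases, which control splicing, 1 rose, 8 fell and 10 did not pass. CLK2 had 18.7 and 16.4 CPM at 6 h, against 42.1 and 40.4 CPM at 3 h, and CLK1, its relative, 39.1 and 32.7 CPM against 17.3 and 14.6 CPM (adjusted p = 3.7e-05 and 0.00055). SRSF6 and SRSF8 fell by 0.97 and 0.75.

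Most mitotic genes fell. Of 32 tested 21 fell, 11 did not pass and none rose, with a median of -0.61. Under the other scalings 12 to 28 passed as lower, up to 2 passed as higher, and the median was between -1.05 and -0.40. TTK, the kinase of the spindle checkpoint, had 14.5 and 14.6 CPM at 6 h, against 63.4 and 63.8 CPM at 3 h, and 118 and 120 CPM at 0 h (log2 change -2.13 ± 0.20 SE, adjusted p = 5.0e-05). KIF11, the motor that separates spindle poles, had 57.2 and 59.5 CPM at 6 h, against 119 and 130 CPM at 3 h. NEK2, a centrosome kinase, fell by 0.96, and KIF2C, a microtubule depolymerase, by 0.71. In whole cultures fewer cells in mitosis and less of these messenger RNAs per cell cannot be told apart.

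Of 40 DNA replication genes tested 5 rose, 11 fell and 24 did not pass, with a median of -0.23, and upper-quartile factors gave 11 higher and 8 lower. E2F2 and E2F3, factors that start S phase, rose: E2F2 had 224 and 206 CPM at 6 h, against 73.3 and 77.3 CPM at 3 h, and 130 and 128 CPM at 0 h (log2 change 1.51 ± 0.10 SE, adjusted p = 9.8e-06), and E2F3 59.6 and 51.7 CPM, against 25.4 and 27.5 CPM. E2F3 lost its call with mitochondrial messenger RNAs held constant (adjusted p = 0.11). POLA2, a primase-polymerase subunit, had 31.4 and 34.6 CPM at 6 h, against 88.8 and 89.0 CPM at 3 h, and GINS1, of the replicative helicase, 25.8 and 26.9 CPM against 48.9 and 49.4 CPM. CDT1, a licensing factor, RRM1, of ribonucleotide reductase, and POLA1, the polymerase subunit, passed as higher with log2 changes of 0.68, 0.32 and 0.42. None of these 3 passed with any 1 treated library left out (adjusted p 0.091 to 0.21), and RRM1 and POLA1 turned direction with mitochondrial or ribosomal protein messenger RNAs held constant.

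Of 36 nucleolar genes of ribosome biogenesis 16 fell, 1 rose and 19 did not pass, with a median of -0.40. Under the other scalings 13 to 32 passed as lower and the median was between -0.84 and -0.18. Beside UTP15 and GRWD1, DDX10, a helicase of the small-subunit processome, had 26.5 and 24.8 CPM at 6 h, against 59.0 and 58.9 CPM at 3 h. POLR1B, the second subunit of RNA polymerase I, had 18.7 CPM in both 6 h libraries, against 42.0 and 46.5 CPM at 3 h. RRS1, a ribosome assembly regulator, passed as higher with a log2 change of 0.51 (adjusted p = 0.035), but not with any 1 OCI-LY3 library left out (0.066 to 0.21). Of 78 cytosolic ribosomal protein genes 16 passed as higher and none as lower, with a median of 0.43. That median was 0.64 at the highest over the other scalings and 0.00 with the family itself held constant, where none passed as higher.

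Of 21 heat-shock chaperones 3 passed as higher, 5 fell and 13 did not pass, shares not far from the 12% higher and 16.3% lower over all genes. HSPA8, the constitutive HSP70, had 2317 and 2302 CPM at 6 h, against 4945 and 4522 CPM at 3 h, and 5130 and 5238 CPM at 0 h (log2 change -1.04 ± 0.20 SE, adjusted p = 0.0027). The inducible copies HSPA1A and HSPA1B, which share almost all their sequence and are therefore uncertain one by one, fell by 1.96 and 1.70. DNAJA1, a co-chaperone, had 291 and 281 CPM at 6 h, against 498 and 470 CPM at 3 h (adjusted p = 0.0096). It kept its call without 3 h replicate 2 and lost it without 3 h replicate 1 (0.057), 6 h replicate 1 (0.059) or 6 h replicate 2 (0.072). HSP90AA1 passed as higher at 5161 and 4989 CPM at 6 h, against 3736 and 3544 CPM at 3 h (adjusted p = 0.013), but not without 6 h replicate 1 (0.084), 6 h replicate 2 (0.058) or 3 h replicate 2 (0.13). HSPD1, the mitochondrial HSP60, passed with a log2 change of 0.41, and at 0.089 to 0.21 with any 1 OCI-LY3 library left out; it turned direction with mitochondrial or ribosomal protein messenger RNAs held constant. HSPB1 had 1.44 CPM in 6 h replicate 1 and no count in the 3 other treated libraries, so that its call rests on 1 library.

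Of 17 genes of the NRF2 response, glutathione and metallothioneins 2 passed as higher, 3 fell and 12 did not pass. These shares were not far from the 12% higher and 16.3% lower over all genes. SLC30A1, a zinc exporter, had 22.3 and 16.2 CPM at 6 h, against 2.92 and 3.54 CPM at 3 h, and 24.6 and 23.8 CPM at 0 h (log2 change 2.57 ± 0.21 SE, adjusted p = 2.8e-05). GCLC and GCLM, the subunits of the enzyme that starts glutathione synthesis, fell by 1.23 and 0.51, and NFE2L2, which encodes NRF2, by 0.81. GCLM lost its call with upper-quartile factors (adjusted p = 0.051). FTH1, the ferritin heavy chain, passed as higher (log2 change 0.50, adjusted p = 0.022), but not without 6 h replicate 2 (0.18) or 3 h replicate 1 (0.17). Of 23 sterol synthesis genes 4 passed as higher, 8 fell and 11 did not pass. MSMO1, an enzyme of the pathway, had 77.2 and 66.5 CPM at 6 h, against 31.5 and 29.8 CPM at 3 h. SREBF2, the factor that drives the pathway, rose by 0.52 on the log2 scale, a call lost with mitochondrial or ribosomal protein messenger RNAs held constant (0.081 and 0.082, adjusted p = 0.90 and 0.76). SCD, a desaturase, passed at 0.046, and at 0.070 to 0.22 with any 1 OCI-LY3 library left out; it turned direction with mitochondrial or ribosomal protein messenger RNAs held constant.

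The lists given by counts alone follow. Over all genes tested 12% were higher and 16.3% lower, and the shares of the KRAB zinc-finger and endoplasmic reticulum folding genes were not far from these. Of 30 homologous recombination and Fanconi genes 2 rose and 11 fell, of 17 integrated stress response genes 2 and 1, of 22 interferon-stimulated genes 2 and 3, and of 15 chemokines and cytokines 3 and 3. Of 15 G1 cyclins and inhibitors 4 rose and 1 fell, of 17 endoplasmic reticulum folding genes 3 and 3, of 65 KRAB zinc-finger genes 8 and 12, and of 15 snoRNA host genes 1 and 2. Of 14 MHC class II genes 5 rose and none fell, of 46 nuclear respiratory-chain genes 8 and none, of 31 proteasome subunits 1 and none, of 25 replication-dependent histones 2 and none, and of 13 housekeeping genes 5 and none. These one-sided counts depend on the scaling. Over the other scalings 0 to 7 MHC class II, 0 to 28 respiratory-chain and 0 to 9 housekeeping genes passed as higher. Up to 2, 2 and 3 of them passed as lower, and up to 12 proteasome subunits did. None of the 13 mitochondrially encoded messenger RNAs passed with TMM, and 7 passed as higher with upper-quartile factors. Of the B-cell markers 3 fell and none rose, and CCND2, a cyclin, stayed under 0.05 CPM in every OCI-LY3 library. Collagen COL1A1 alone made up most of the epithelial and stromal markers, with 104 and 97.0 CPM at 6 h and 67.6 and 67.2 CPM at 3 h, while EPCAM, KRT18 and DCN had no count.

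Genes that fell were longer and better expressed at the start than genes that rose. The median span was 18520.5 bases for genes higher at 6 h, 35912 for genes lower and 23645 for all genes tested. Genes that fell had a median of 10 exons and genes that rose a median of 6, and 2.81% of the genes that fell had a single exon, against 11.7% of those that rose. The share of genes lower at 6 h was 5.51% for spans up to 5 kb, 23.6% between 50 and 100 kb, and 11.8% over 200 kb. Genes that fell had a median of 36.3 CPM at 0 h and genes that rose 1.30 CPM. Over all genes tested the medians were 7 exons and 8.99 CPM at 0 h. A single exon was found in 11.1% of all genes tested, near the share of those that rose. A call is easier to reach at a higher count, and span and level were not separated.

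**Figure D4:**
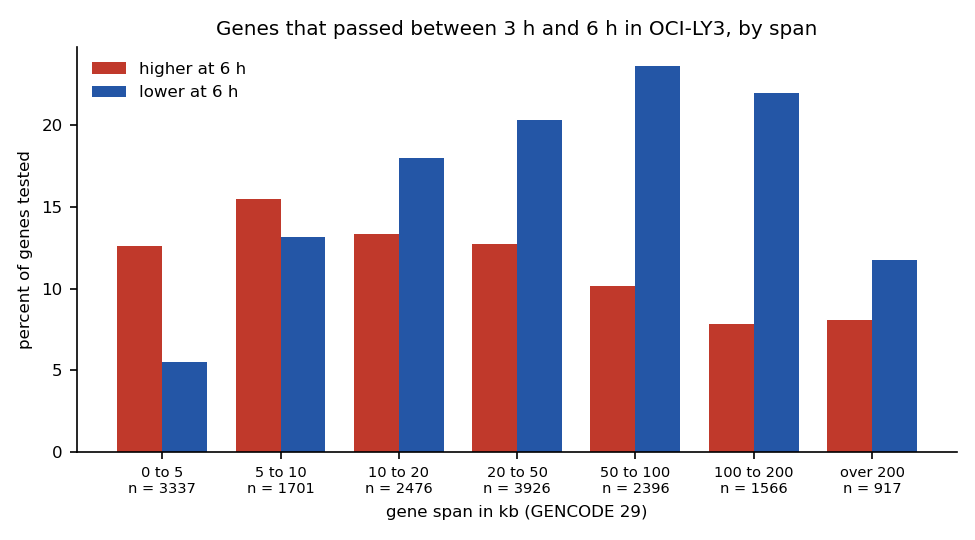
Percent of genes tested that were higher (red) or lower (blue) at 6 h than at 3 h in OCI-LY3, by the span of the gene in kb. The share lower climbs from 5.51% up to 5 kb to 23.6% at 50 to 100 kb, and is 11.8% over 200 kb.

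The same interval in VAL, the other line, shares no library with that of OCI-LY3. In VAL 1235 genes were higher at 6 h than at 3 h (7.54%) and 2502 were lower (15.3%). Across all 16374 genes the log2 changes of OCI-LY3 and VAL had a Pearson r of 0.48 and a Spearman rho of 0.51, a description over genes, which are not independent. Of the genes that passed in OCI-LY3, 759 were higher in both lines and 1388 lower in both, 18 were higher in OCI-LY3 and lower in VAL, and 22 were lower in OCI-LY3 and higher in VAL. The lines were sequenced on separate lanes, so line and lane cannot be told apart. The VAL replicates also stood further apart, with a chi-square of 48.5 per degree of freedom at 6 h and 59.0 at 3 h.

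The difference between lines was tested directly. It was more positive in OCI-LY3 for 333 genes (2.03%) and more negative for 237 (1.45%) by the edgeR test of the difference. With 3 h replicate 2 of OCI-LY3 left out 41 genes were more positive, and with 3 h replicate 1 of VAL left out 1170, so these counts rest on single libraries. MYC, PIM1 and BCL6 rose more in OCI-LY3 than in VAL, by differences in log2 change of 1.30, 1.14 and 0.82 (adjusted p = 0.0018, 0.0027 and 0.015). BCL2L1 also did, by 0.95 (adjusted p = 0.011), whereas MCL1 rose by 0.88 in OCI-LY3 and 0.93 in VAL, a difference of -0.04 ± 0.22 (SE).

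Among the 10 genes named for this difference the largest was that of DTX4, a ubiquitin ligase of the Deltex family. It had 7.72 and 8.22 CPM in OCI-LY3 at 6 h, against 16.2 and 17.9 CPM at 3 h, whereas VAL had 32.7 and 37.5 CPM at 6 h and 8.92 and 7.65 CPM at 3 h. The changes differed by -3.18 ± 0.18 (SE, adjusted p = 5.0e-05). CHMP7, a membrane remodelling protein of the nuclear envelope, had 15.6 and 16.4 CPM at 6 h, against 41.2 and 40.3 CPM at 3 h in OCI-LY3, and 44.0 and 38.2 CPM at 6 h, against 33.3 and 33.4 CPM at 3 h in VAL (difference -1.65 ± 0.14 SE). HAS3, a hyaluronan synthase, and GTPBP2 also had more negative changes in OCI-LY3 (differences -1.45 and -1.52). JMJD6, a hydroxylase, had a log2 change of 0.32 in OCI-LY3, which did not pass, and 1.95 in VAL. With mitochondrial messenger RNAs held constant the differences of CHMP7, JMJD6, GTPBP2 and HAS3 were -1.29, -1.29, -1.15 and -1.12 and did not pass (adjusted p 0.10 to 0.17), and that of GTPBP2 did not with ribosomal protein messenger RNAs held constant either (0.081). On the positive side BCL3 had a difference of 1.48 ± 0.16 (SE, adjusted p = 0.0023). GINS3, of the replicative helicase, had 27.3 and 23.3 CPM at 6 h, against 19.8 and 17.2 CPM at 3 h in OCI-LY3, and 2.50 and 3.71 CPM at 6 h, against 5.92 and 9.88 CPM at 3 h in VAL (difference 1.80, adjusted p = 0.017). Its difference did not pass with any 1 treated OCI-LY3 library left out (0.054 to 0.096). The differences of GADD45B, DNAJA1 and AOC3, an amine oxidase, were 1.69, 1.60 and 1.71. That of GADD45B lost its call without 6 h replicate 1 (0.058) or 3 h replicate 2 (0.074) of OCI-LY3, that of DNAJA1 without 6 h replicate 1 (0.067), 3 h replicate 1 (0.056) or 3 h replicate 2 (0.075), and that of AOC3 without 6 h replicate 1 (0.10), 6 h replicate 2 (0.074) or 3 h replicate 2 (0.12).

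**Figure D5:**
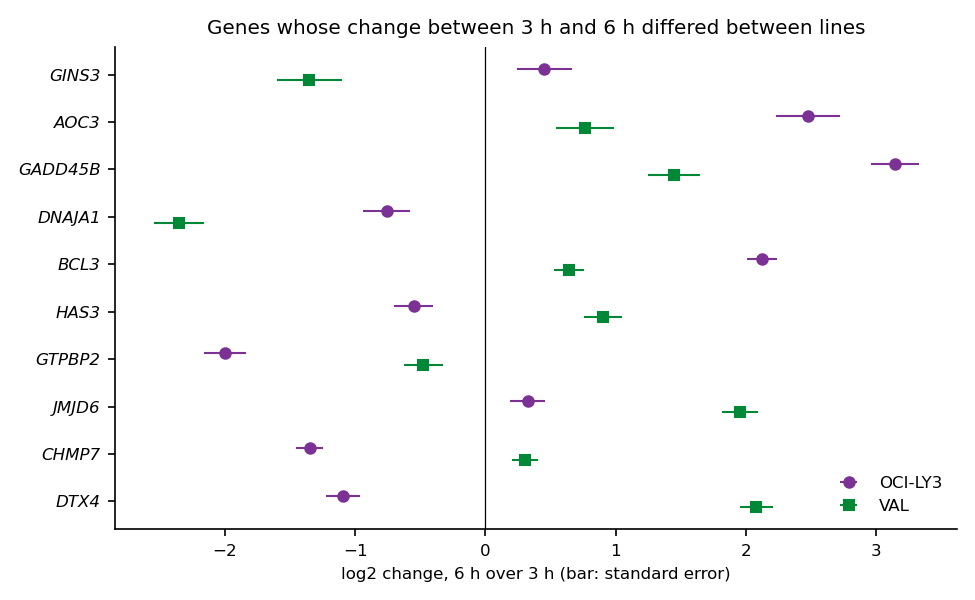
Log2 change of 6 h over 3 h (x axis; bars are standard errors) of the 10 genes named for the difference between lines, with OCI-LY3 as purple circles and VAL as green squares. DTX4 fell in OCI-LY3 and rose in VAL, and BCL3 and GADD45B rose in both lines and more in OCI-LY3.

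The 2 comparisons with 0 h share libraries with the comparison of 6 h and 3 h, so values are set side by side without any overlap or correlation. In OCI-LY3 the median log2 change of the mitotic genes was -0.19 for 3 h over 0 h and -0.95 for 6 h over 0 h, and that of the nucleolar genes -0.25 and -0.77. For the G-protein and migration genes the medians were -1.42 and -0.60, and for the AP-1 and EGR genes -1.63 and -0.57. KRAB zinc-finger genes had medians of -1.5 and -1.59. The ribosomal protein genes had medians of 0.71 and 1.15.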

How the data were processed

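Each library is poly(A)-selected, unstranded and single-read, per the labels' protocols. The authors deposited raw counts per gene for 12 libraries and a log2 table of the same libraries. The build GRCh38 and DESeq2 are named in the submitters' processing notes, while no aligner or counter is named (not given in the sources used here). Counts were tested with edgeR 4.0.16's quasi-likelihood test in 1 fit over all 12 libraries and 6 groups, with TMM factors, filterByExpr and Benjamini-Hochberg adjustment at 0.05, which leaves 6 residual degrees of freedom. The test was checked on simulated data. It recovered 81 of 100 planted 2-fold changes and 100 of 100 4-fold changes, with 7 false calls. The simulation gave all groups the same spread at a given level, so it does not cover the unequal spread of the real groups. Gene spans come from GENCODE 29 and promoters from RefSeq.

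Genes are named as a fixed core list, and as the 12 highest and 12 lowest protein-coding genes that passed with at least 5 CPM. For the highest and lowest, both 6 h libraries had to lie on the same side of both 3 h libraries. Also named are the 5 most positive and 5 most negative differences between lines. They were taken among genes with at least 5 CPM on average in the treated libraries of each line. The 6 h and 3 h libraries of each line could not overlap in them. For each list, up to 4 members with the smallest adjusted p are named, plus those that passed against its majority. The members and lists were chosen with earlier results of these data known. Other scalings, filters, tests (DESeq2 1.42.0, limma 3.58.1), sample sets and omitted libraries were tried. A few genes that this rule names are not reported here.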

Additional observations from a re-analysis of the deposited data

Results flagged for a closer look

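These 35 named genes changed differently between 3 h and 6 h in the lines by the edgeR test of the difference itself (adjusted p under 0.05). The value is the log2 change in OCI-LY3 minus that in VAL. It was positive for 23 genes: XBP1 2.53, MB21D1 1.82, GINS3 1.80, AOC3 1.71, GADD45B 1.69, DNAJA1 1.60, BCL3 1.48, TSPOAP1 1.42 and CXCR5 1.39; HSPA8 1.34, BIRC2 1.30, MYC 1.30, GCLC 1.28, ICAM1 1.15, PIM1 1.14, BTG2 1.10, IRF8 1.06, IER5 1.05, BCL2L1 0.95, E2F2 0.90, JUNB 0.89, BCL6 0.82 and NFKB1 0.58. It was negative for 12 genes: DTX4 -3.18, CFL2 -2.43, CD180 -1.68, CHMP7 -1.65, JMJD6 -1.63, GTPBP2 -1.52, HAS3 -1.45, CLK2 -1.34, CDK8 -0.92, METTL13 -0.87, FAS -0.85 and TNFRSF10B -0.65. Line and sequencing lane cannot be told apart, and the part of the lane in these differences was not tested. Other scalings were checked gene by gene only for the 10 genes named for the difference, and 6 of them passed under all 5. No such check is given for the other genes here. With mitochondrial messenger RNAs held constant 14 of all genes tested were more negative in OCI-LY3, against 237 with TMM.

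XBP1 had a log2 change of 1.25 in OCI-LY3 and -1.28 in VAL, and CFL2 -1.91 in OCI-LY3 and 0.53 in VAL. HSPA8 had -1.04 in OCI-LY3 and -2.37 in VAL. XBP1, CFL2, CD180, MB21D1 and JUNB were among the genes here that averaged under 5 CPM in the treated VAL libraries.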

How the results depend on the processing

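Of 144 named genes that passed in OCI-LY3, 119 passed in all 4 fits that leave out 1 treated OCI-LY3 library, and 110 passed under all 5 other scalings. The genes higher numbered 3391 with upper-quartile factors, 973 with mitochondrial and 924 with ribosomal protein messenger RNAs held constant, 3749 with OCI-LY3 alone, 3451 with its 4 treated libraries alone and 3837 without the treated VAL libraries, a setting chosen after seeing the data. The genes lower numbered 1590 with upper-quartile factors, 4968 with ribosomal protein messenger RNAs held constant, 4072 with OCI-LY3 alone and 4451 without the treated VAL libraries. With 1 library left out at a time the genes higher numbered 1070 to 2474 and the genes lower 1538 to 3252. At 2-fold or more, 767 were higher with ribosomal protein messenger RNAs held constant and 362 at a minimum of 5 CPM, and 1222 were lower with library totals, 418 with upper-quartile factors, 2465 with mitochondrial and 2328 with ribosomal protein messenger RNAs held constant, 377 at 5 CPM and 513 from the deposited log2 values.

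More positive differences between lines numbered 502 with no filter, 790 with DESeq2 and 682 with the replicate block, and more negative ones 14 with mitochondrial and 44 with ribosomal protein messenger RNAs held constant, 666 with no filter, 396 at 5 CPM, 597 with DESeq2, 383 from the deposited log2 values and 465 with the block. Leaving out 1 library gave 41 to 1170 more positive and 34 to 762 more negative differences. The replicate block gave 2412 genes higher and 3136 lower in OCI-LY3 and changed the call of no named gene. The correlation of same-numbered deviations was 0.057 in OCI-LY3 and 0.50 in VAL, and with 2 replicates a group and no label that ties equal numbers together, the samples share only a number.

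Directions turned, with mitochondrial then ribosomal protein messenger RNAs held constant, for BCL2A1 (-0.18, -0.19), CDK9 (-0.29, -0.29), POLR2A (-0.35, -0.33), NELFCD (-0.062, -0.070), PRKCB (-0.13, -0.13), HSPD1 (-0.016, -0.024), SCD (-0.073, -0.069), RRM1 (-0.12, -0.12) and POLA1 (-0.021, -0.017). With library totals CDK9 was at -0.018 and POLR2A at -0.053. With 1 library left out POLR2A ranged between -0.084 and 0.37 and HSPB1 between 0 and 8.50. The cause was not tested. Depth limits genes of a few counts, such as FOS and PRDM1.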
